A study of Mus musculus with 9 samples.

Results

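The transcripts of the REV-ERB and ROR nuclear receptors were examined in the aorta of mice with and without BMAL1. The members were taken as every probe set that the platform annotation pairs with exactly 1 gene, that gene being Nr1d1, Nr1d2, Rora or Rorb. This gave 15 of the 45037 probe sets and 4 of the 18193 genes, with 1 probe set for Nr1d1, 2 for Nr1d2, 9 for Rora and 3 for Rorb. Each gene is represented by its brightest probe set, and the others are given beside it. Total RNA of the aorta was hybridised to Affymetrix mouse arrays, 1 array per sample, from 4 male BMAL-/- mice (arrays F02, F03, F05 and F08) and from 5 male BMAL+/+ mice, on arrays F01, F04, F07, F09 and F10, which the design text calls biological replicates. The genotype concerns Arntl, which encodes BMAL1, and both groups were only partly backcrossed to C57Bl/6J. The allele and the ages are not stated in the labels. Mice of both groups were kept in alternating light and dark, 12 h each, for 2 weeks or longer, then in the dark for no less than 30 h, and were sampled at ZT14. The tissue is named thoracic aorta in one label, whereas the dissection ran from the arch to beyond the femoral branching. Values are log2 expression as deposited, and all differences are BMAL-/- minus BMAL+/+ on that scale.

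REV-ERB-alpha (Nr1d1) and REV-ERB-beta (Nr1d2) are nuclear receptors that bind heme and repress transcription, and ROR-alpha (Rora) and ROR-beta (Rorb) activate it from the same DNA element, the ROR element. BMAL1, with CLOCK or NPAS2, drives the Nr1d genes through E-boxes, and REV-ERB proteins in turn repress Arntl, Npas2 and other genes that carry ROR elements, which makes the second loop of the circadian clock. REV-ERB proteins lack the last helix of the ligand-binding domain through which the ROR proteins recruit coactivators, and they work through the corepressor NCOR1 and the deacetylase HDAC3. Rora is transcribed in many tissues, whereas Rorb is known mainly from brain, retina and pineal gland.

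The promoters below are shown because they hold the windows in which the elements named above can be looked for at both Nr1d genes and at Arntl, a target of the receptors. They run from 250 bases before to 50 bases after the annotated start, 5′ to 3′ on the strand of the gene, from RefSeq on GRCm38.p6, and all 4 members had an entry. Capitals mark matches, on either strand, to CACGTG (the E-box), CACGTT (a variant of it), AGGTCA and GGGTCA (half-sites of nuclear receptors) and TNGGTCA. The last is the core of the ROR element with any base allowed at N, and it holds a half-site only where N is A or G.
Nr1d1 promoter, chr11:98775328-98775627, minus strand: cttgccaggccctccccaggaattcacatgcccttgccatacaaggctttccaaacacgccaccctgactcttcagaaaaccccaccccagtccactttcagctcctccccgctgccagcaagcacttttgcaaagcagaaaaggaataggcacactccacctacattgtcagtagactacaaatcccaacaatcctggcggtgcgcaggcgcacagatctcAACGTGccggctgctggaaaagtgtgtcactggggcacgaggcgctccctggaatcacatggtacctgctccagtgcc
Nr1d2 promoter, chr14:18239057-18239356, minus strand: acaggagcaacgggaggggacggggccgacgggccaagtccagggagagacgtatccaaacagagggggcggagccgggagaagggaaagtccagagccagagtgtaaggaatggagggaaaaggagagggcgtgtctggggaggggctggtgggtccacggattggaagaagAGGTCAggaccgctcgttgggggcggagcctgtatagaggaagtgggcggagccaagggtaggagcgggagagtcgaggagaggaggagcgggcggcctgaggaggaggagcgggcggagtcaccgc
Arntl promoter, the second of 2 entries, chr7:113207261-113207560, plus strand: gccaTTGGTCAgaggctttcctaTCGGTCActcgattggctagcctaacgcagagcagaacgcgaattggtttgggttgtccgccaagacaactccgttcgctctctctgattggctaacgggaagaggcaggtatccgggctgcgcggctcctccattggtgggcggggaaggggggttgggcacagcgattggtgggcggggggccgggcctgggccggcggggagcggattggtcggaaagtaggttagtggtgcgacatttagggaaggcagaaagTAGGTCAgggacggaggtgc

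The Nr1d1 window held 1 match to the E-box variant, read on the opposite strand, whose first base lies at position -28 relative to the start. The Nr1d2 window held 1 AGGTCA half-site, at position -77. The Arntl window held 3 matches to TNGGTCA, at positions -246, -227 and 30. Those at -246 and -227 read TTGGTCA and TCGGTCA and hold neither half-site. Only the match at 30, TAGGTCA, also contains AGGTCA. The Rora window and the first of 2 Rorb windows held none of these letters, and the second Rorb window held 1 match to the E-box variant. Of 32851 promoter windows of the same length, 7.15% held CACGTG, 4.685% CACGTT, 16.26% AGGTCA, 13.7% GGGTCA and 10.96% TNGGTCA. A match is a description of the letters, and its absence says only that they are not in this window.

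Arrays F04 and F05 stood with the other genotype at clock genes, so they are marked throughout. Arntl, the targeted gene, read 5.87 to 6.22 on the arrays labelled BMAL-/- F02, F03 and F08 and 2.77 on F05, against 2.74 to 2.82 on 4 of the arrays labelled BMAL+/+ and 6.67 on the fifth, F04. On this probe set Arntl was thus higher where the label says that the gene is lost, F04 and F05 excepted, and the sources used here do not say which part of Arntl is deleted or where the probe set binds. Directions below follow the labels. Array F01 is BMAL+/+ by its title and strain and BMAL-/- by its source name. It was kept in BMAL+/+, and values with it in BMAL-/- are given where they change a direction or a call. Array medians lay between 3.13 and 3.24, highest on F02 and F03, and values near or below them are in a dense floor without detection flags. The tissue expressed the smooth muscle markers of an aorta, with Acta2 at 13.99 to 14.27 in BMAL-/- and 14.09 to 14.37 in BMAL+/+, and it also held brown fat, with Ucp1 at 13.10 to 14.32 in BMAL-/- and 13.16 to 14.68 in BMAL+/+. Markers of heart, skeletal muscle and nerve differed widely between arrays of 1 genotype (Snap25, of neurons, read 2.84 to 8.33 in BMAL-/- and 2.73 to 9.50 in BMAL+/+). In whole tissue, fewer cells of a type and less RNA per cell cannot be told apart.

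Nr1d2, the REV-ERB-beta gene, had the widest range over the arrays of the 4 genes, 6.61 log2 units at its main probe set (1416958_at). It read 5.08, 5.89, 11.21 and 5.48 on F02, F03, F05 and F08, labelled BMAL-/-. It read 11.69, 5.81, 11.27, 10.39 and 11.09 on F01, F04, F07, F09 and F10, labelled BMAL+/+. The 9 values lay either between 5.08 and 5.89 or between 10.39 and 11.69, with no array between. Of the low arrays 3 were labelled BMAL-/- and 1, F04, BMAL+/+, and F05 was the only array labelled BMAL-/- among the high ones, so the groups overlapped. A range of at least 2 log2 units was found at 2 of the 15 receptor probe sets, this one and that of Nr1d1, and at 7.16% of all probe sets.

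The other Nr1d2 probe set (1416959_at), whose mean of 3.04 lies near the floor, had the same arrays low and high. It read 2.38, 2.38, 3.38 and 2.32 on F02, F03, F05 and F08 in BMAL-/-, and 4.08, 2.15, 3.59, 3.23 and 3.81 on F01, F04, F07, F09 and F10 in BMAL+/+. F05 was again the only BMAL-/- array among the high values and F04 the only BMAL+/+ array among the low ones. Within the BMAL+/+ arrays other than F04, F01 was highest and F09 lowest at both probe sets.

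**Figure D1:**
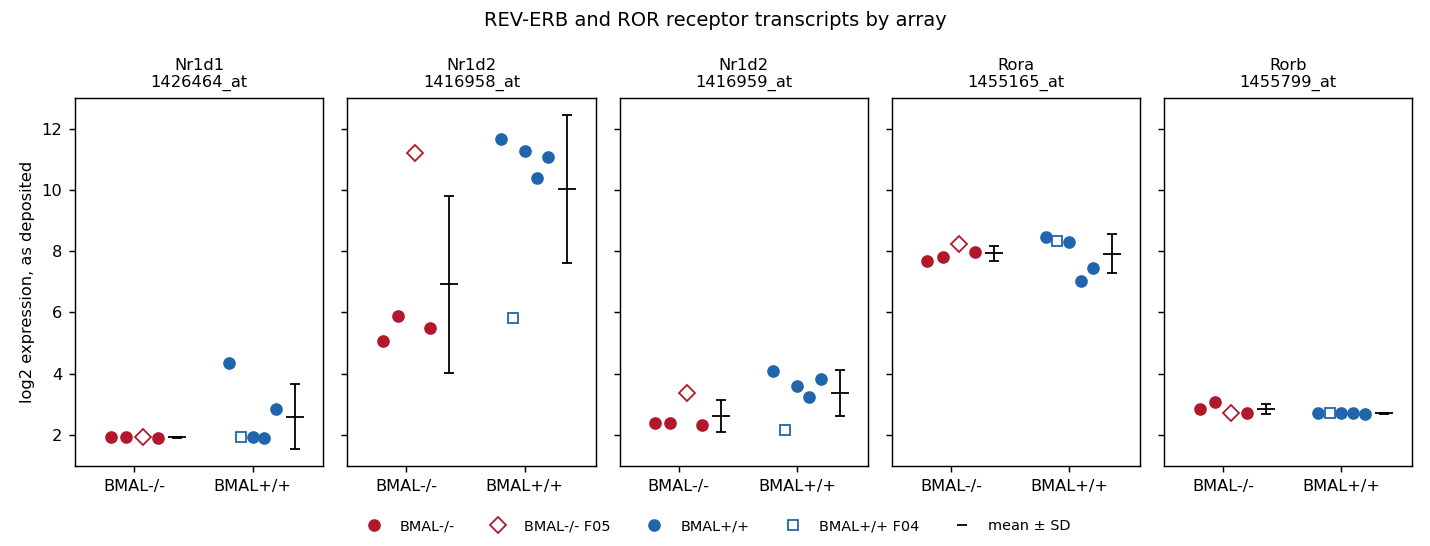
Log2 expression as deposited (y axis) at the main probe set of each gene and at the other Nr1d2 probe set, by genotype, with 1 point per array, open symbols for F05 (diamond) and F04 (square), and the mean ± SD of each group. Nr1d2 at 1416958_at splits into 4 arrays between 5.08 and 5.89 and 5 between 10.39 and 11.69, with F05 and F04 on the side of the other genotype. Probe sets are not comparable in level with each other.

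Over the 9 arrays as labelled, Nr1d2 averaged 6.92 ± 2.88 in BMAL-/- (SD, n = 4) and 10.05 ± 2.42 in BMAL+/+ (SD, n = 5), a difference of -3.13 ± 1.58 (SE, 95% confidence interval -6.72 to 0.45). It did not pass limma's test over all probe sets (adjusted p = 0.37), as no probe set did (0% called at an adjusted p under 0.05, 8.67% at an unadjusted p under 0.05). The two-sided exact permutation p was 0.119, where the smallest possible was 0.00794. With array weights the difference was -0.74, with F01 in BMAL-/- it was -1.77, and without F04 or F05 alone it was -4.19 or -4.56. None of these passed. The other probe set differed by -0.75 ± 0.40 (SE, adjusted p = 0.37).

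Once F04 and F05 were left out, Nr1d2 was lower in BMAL-/-, at 5.48 ± 0.41 (SD, n = 3) against 11.11 ± 0.54 in BMAL+/+ (SD, n = 4). The difference was -5.63 ± 0.34 (SE, 95% confidence interval -6.44 to -4.81) and passed in limma (adjusted p = 0.0159), with every BMAL-/- array under every BMAL+/+ array. It was 1 of 4 probe sets called, or 0.00888% of all. The reason to leave out F04 and F05 lay in their clock genes, Nr1d2 among them, so this is no independent evidence, and the exact permutation p of 0.0286 is the smallest that 7 arrays allow. The call was lost without F01 (adjusted p = 0.0511), F02 (0.0577), F03 (0.0823), F07 (0.157) or F10 (0.112), after quantile normalization (0.051), in the F-test named by the design text (0.0826) and with F01 in BMAL-/- (0.591), and the difference then lay between -3.88 and -5.83. The other probe set differed by -1.31 ± 0.19 (SE) and did not pass (adjusted p = 0.208). Its BMAL-/- values, 2.32 to 2.38, lie in the floor, so that this difference may be understated.

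Of the cell type marker means, only that of fibroblasts kept the arrays low and high in Nr1d2 apart. Those of smooth muscle and macrophages followed Nr1d2 in part. The means of brown fat and white fat had F08 among the high arrays. For heart muscle, skeletal muscle and nerve the low and high arrays overlapped. The mean of the 3 fibroblast markers (Dcn, Dpt and Pi16, all measured) was 8.35, 8.20, 10.55 and 9.66 on F02, F03, F05 and F08 in BMAL-/-, and 10.43, 8.62, 10.71, 11.05 and 10.50 on F01, F04, F07, F09 and F10 in BMAL+/+. It was thus lower on the arrays low in Nr1d2 than on those high in it, with F08 the nearest to the high ones. The lowest single value of the 3 was 4.83, for Pi16 on F04, above the highest array median. The mean of the 6 smooth muscle markers was 9.88, 9.76, 11.04 and 11.17 in BMAL-/- and 10.91, 10.27, 11.51, 11.19 and 11.09 in BMAL+/+, in the same order of arrays, with F08 among the high ones. Within this list Acta2 and Des did not follow Nr1d2. Acta2 read 14.20 on F04 and 14.09 on F09, and Des 7.61 on F08 and 5.22 on F01. The mean of the 3 macrophage markers was 5.08, 4.19, 5.70 and 5.37 in BMAL-/- and 5.28, 5.16, 6.02, 6.52 and 7.11 in BMAL+/+, again in that order, with F01 and F08 the only arrays out of line with Nr1d2. Of these markers, Cd68 lay near the floor on all arrays but F09 and F10. The mean of the 5 endothelial markers did not follow Nr1d2. It was 5.34, 5.76, 5.76 and 5.57 in BMAL-/- and 5.83, 5.97, 5.96, 6.15 and 5.82 in BMAL+/+. Only F09 lay above F04. Of the 5, 2 were higher and 3 lower in BMAL-/-. Pecam1 read 5.14, 5.75, 7.19 and 6.17 in BMAL-/- and 7.12, 6.76, 8.06, 7.75 and 7.57 in BMAL+/+. It was lower on each array low in Nr1d2 than on any high in it. Kdr went the other way, at 5.16, 6.08, 4.50 and 4.93 in BMAL-/- and 4.65, 5.49, 4.02, 4.66 and 4.31 in BMAL+/+. For Cdh5, Tie1 and Esam the low and high arrays overlapped. The part of these markers in the Nr1d2 result was not tested.

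Nr1d1, the REV-ERB-alpha gene, read near the floor on most arrays at its only probe set (1426464_at). It read 1.92, 1.92, 1.92 and 1.90 on F02, F03, F05 and F08 in BMAL-/-, and 4.36, 1.92, 1.93, 1.91 and 2.84 on F01, F04, F07, F09 and F10 in BMAL+/+. F01 and F10, both labelled BMAL+/+, were the only arrays above the others, and F01, whose labels disagree, was highest here and at both Nr1d2 probe sets. F05, F07 and F09, which are 3 of the 5 arrays high in Nr1d2, were at the level of the arrays low in it.

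The group means of Nr1d1 were 1.92 ± 0.01 in BMAL-/- (SD, n = 4) and 2.59 ± 1.07 in BMAL+/+ (SD, n = 5). The difference of -0.67 ± 0.48 (SE, 95% confidence interval -1.77 to 0.43) did not pass in limma (adjusted p = 0.438) or in the exact permutation test (p = 0.302), and it was -0.84 ± 0.59 (SE, adjusted p = 0.346) without F04 and F05. It was -0.23 without F01 and 0.26 with F01 in BMAL-/-, so that its size rests on F01 and its direction on the label of that array. Since the BMAL-/- arrays lay in the floor, no fold is given. In RefSeq, Nr1d1 overlaps Thra, a thyroid hormone receptor gene, and which strand and exons the probe set covers is not stated. Thra, named for this overlap and not from a list, read 7.81, 8.40, 6.97 and 8.11 on F02, F03, F05 and F08 in BMAL-/- and 7.39, 8.74, 7.25, 7.34 and 6.51 on F01, F04, F07, F09 and F10 in BMAL+/+. Any part of Thra transcripts in the Nr1d1 readings was not tested.

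Rora, the ROR-alpha gene, showed no such split of the arrays. At its main probe set (1455165_at) it read 7.69, 7.82, 8.25 and 7.97 on F02, F03, F05 and F08 in BMAL-/-, and 8.47, 8.35, 8.29, 7.04 and 7.44 on F01, F04, F07, F09 and F10 in BMAL+/+. The BMAL-/- values lay inside the BMAL+/+ range, with F09 and F10 lowest and F01 highest. The means were 7.93 ± 0.24 in BMAL-/- (SD, n = 4) and 7.92 ± 0.64 in BMAL+/+ (SD, n = 5), a difference of 0.02 ± 0.32 (SE, limma adjusted p = 0.98, exact permutation p = 0.968). The 95% confidence interval ran from -0.71 to 0.74, and without F04 and F05 the difference was 0.02 ± 0.37 (SE). The sign turned to -0.024 after the arrays were centred on 1 median.

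The other Rora probe sets did not all follow the main one. Of the 9, 6 had a mean above the median of all probe sets, 3.19, and of these the main one differed by 0.02 and the other 5 by -0.18 to -0.46. The mean of the 9 probe sets differed by -0.13 (limma adjusted p = 0.451). The largest of these differences, at 1420583_a_at, was -0.46 ± 0.25 (SE, adjusted p = 0.37) over the 9 arrays and -0.68 ± 0.27 (SE, adjusted p = 0.208) without F04 and F05. That probe set read 4.26, 4.86, 5.29 and 5.18 on F02, F03, F05 and F08 in BMAL-/-, and 5.18, 5.00, 5.71, 5.71 and 5.18 on F01, F04, F07, F09 and F10 in BMAL+/+. F02 and F03 were lowest, F07 and F09 highest, and F04 and F05 lay between, so the groups overlapped.

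The second brightest Rora probe set (1436326_at) read 7.15, 6.67, 7.34 and 6.92 on F02, F03, F05 and F08 in BMAL-/-, and 7.38, 7.12, 7.23, 7.20 and 7.20 on F01, F04, F07, F09 and F10 in BMAL+/+. The groups no longer overlapped without F04 and F05, and the difference was -0.34 ± 0.16 (SE, limma adjusted p = 0.215). The remaining probe sets of Rora that were above the median brightness were 1424034_at, at 4.65 to 5.16 in BMAL-/- and 4.67 to 5.45 in BMAL+/+, 1436325_at, at 3.37 to 4.46 in BMAL-/- and 3.82 to 4.80 in BMAL+/+, and 1458129_at, at 3.44 to 3.82 in BMAL-/- and 3.72 to 4.06 in BMAL+/+. The groups overlapped at each of them. The 3 dimmer ones, 1424035_at, 1458145_at and 1441085_at, lay in the floor with ranges over the 9 arrays of 0.14, 0.38 and 0.03. The sources used here do not say which Rora transcripts each probe set detects. Some Rora values were exactly equal between arrays, such as 5.18 on F01, F08 and F10 at 1420583_a_at. Such ties occurred at 25.4% of all probe sets and are a property of the deposited summary values.

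**Figure D2:**
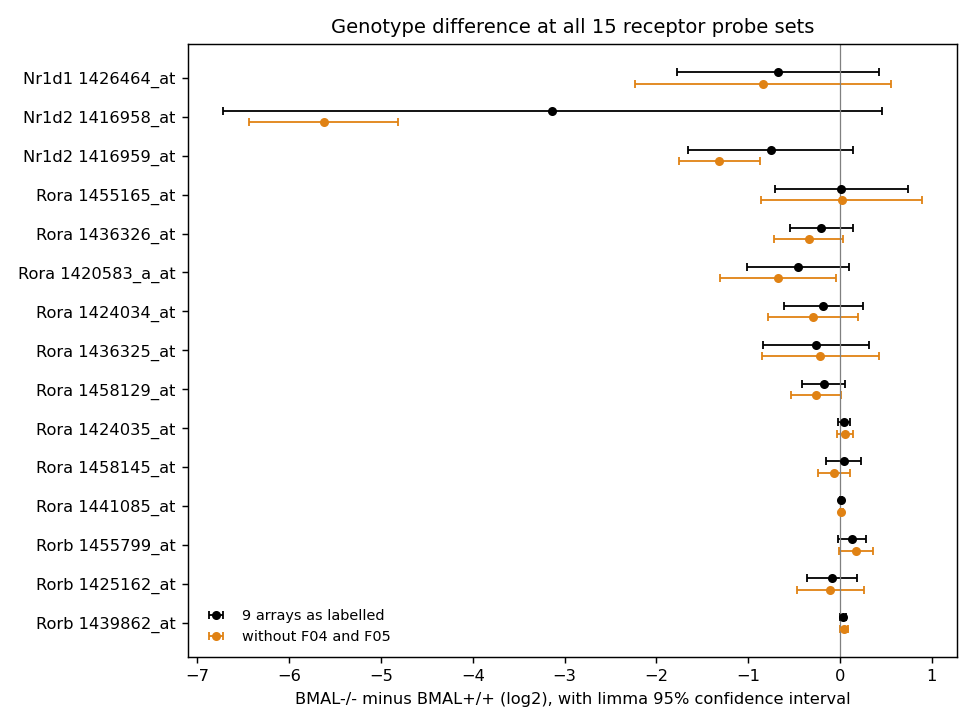
Difference BMAL-/- minus BMAL+/+ in log2 expression (x axis) at the 15 receptor probe sets, with limma's 95% confidence interval, over the 9 arrays as labelled (black) and without F04 and F05 (orange). The interval of Nr1d2 at 1416958_at runs from -6.72 to 0.45 as labelled and from -6.44 to -4.81 without the 2 arrays, whereas that of the main Rora probe set spans 0 in both.

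Rorb, the ROR-beta gene, lay in the floor at its 3 probe sets. The main one (1455799_at) read 2.85, 3.07, 2.73 and 2.71 on F02, F03, F05 and F08 in BMAL-/-, and 2.70, 2.73, 2.70, 2.71 and 2.68 on F01, F04, F07, F09 and F10 in BMAL+/+. F03 and F02 were above the other arrays, which lay within 2.68 to 2.73. The means were 2.84 ± 0.17 in BMAL-/- (SD, n = 4) and 2.71 ± 0.02 in BMAL+/+ (SD, n = 5), which differ by 0.13 ± 0.07 (SE, limma adjusted p = 0.37, exact permutation p = 0.0238). F02 and F03 also have the highest array medians, and the difference was 0.09 after quantile normalization, 0.09 after centring of the arrays on 1 median, 0.058 without F03, 0.043 with array weights and 0.027 as the mean of the 3 probe sets.

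The Rorb difference without F04 and F05 was 0.18 ± 0.08 (SE, limma adjusted p = 0.208), and it passed only with array weights (0.26, adjusted p = 0.0217) and without F08 (0.26, adjusted p = 0.0239), settings under which 15448 and 16445 probe sets passed. The other probe sets of Rorb differed by -0.09 (1425162_at) and 0.03 (1439862_at). At 1425162_at F09, labelled BMAL+/+, read 2.92, against 2.30 to 2.39 on the other 8 arrays. The mean of the nerve and Schwann cell markers (3 of 5 measured, Mbp, Snap25 and Th) was 5.96, 7.93, 4.96 and 5.85 on F02, F03, F05 and F08 in BMAL-/- and 6.44, 4.93, 7.08, 8.92 and 5.51 on F01, F04, F07, F09 and F10 in BMAL+/+. This mean was highest on F09 and F03, but it did not follow Rorb over the arrays at either 1425162_at or 1455799_at. F09 was highest only at 1425162_at and read 2.71 at 1455799_at. F03 was highest only at 1455799_at and read 2.39 at 1425162_at. F02, at 2.85 on 1455799_at, had a marker mean of 5.96. F07, with a marker mean of 7.08, read 2.35 at 1425162_at and 2.70 at 1455799_at. The part of nerve and Schwann cells in the Rorb readings was not tested.

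Over the whole family, the groups as labelled overlapped at all 15 probe sets (0.773% of all probe sets did not overlap), and none had an unadjusted limma p under 0.05. Without F04 and F05 the groups did not overlap at 4 of 15, both of Nr1d2 and 1 each of Rora (1436326_at) and Rorb (1455799_at), where 17.5% of all probe sets did not, and 3 of 15 had an unadjusted p under 0.05, where 23.7% of all did. F05 was the highest BMAL-/- array and F04 the lowest BMAL+/+ array at 5 of the 15, both probe sets of Nr1d2 and 3 of Rora (1436326_at, 1420583_a_at and 1458145_at), and this held at 3.87% of all probe sets. The opposite order held at 0 of 15 and at 7.64% of all. F04 and F05 were singled out by clock genes, Nr1d2 among them, and the 5 probe sets repeat the same genes. Nothing is therefore read from these counts.

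Genes with a profile close to that of Nr1d2 were then looked for, by the mean absolute difference between 2 profiles after each was centred on its own mean over the 9 arrays. Nr1d2 was the only 1 of the 4 genes with a main probe set above the median brightness and a range of at least 2. The nearest of 18192 genes were Dbp, a clock-controlled transcription factor, at a mean difference of 0.96 log2 units, Cyp2f2, a cytochrome P450, at 1.01, Inmt, a methyltransferase of indole amines, at 1.11, and Per3, a period gene, at 1.13. The median gene lay at 2.77, and the mean absolute deviation of Nr1d2 itself was 2.75. With the sign turned, the nearest were Npas2, the partner of BMAL1, at 0.46, Arntl at 1.06, Fer1l6 at 1.11 and Slc25a34, a mitochondrial carrier, at 1.18. These distances describe 9 arrays that share the positions of F04 and F05 and carry no test.

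Npas2 split the arrays as Nr1d2 did, with the sign turned, though the order within each side was not mirrored. It read 8.08, 7.90, 3.40 and 8.52 on F02, F03, F05 and F08 in BMAL-/-, and 3.37, 8.36, 3.40, 3.37 and 3.38 on F01, F04, F07, F09 and F10 in BMAL+/+. The 5 arrays high in Nr1d2 lay within 3.37 to 3.40, near the floor, and the 4 arrays low in it between 7.90 and 8.52. Cyp2f2 read 2.17, 2.86, 7.84 and 2.70 in BMAL-/- and 6.05, 2.72, 4.81, 6.21 and 7.03 in BMAL+/+, in the same order of arrays, so that the 4 arrays low in Nr1d2 lay in the floor. Fer1l6 read 5.67, 7.55, 2.96 and 6.21 in BMAL-/- and 3.63, 7.21, 3.04, 3.63 and 3.43 in BMAL+/+. For each of the 3, the 4 arrays low in Nr1d2 did not overlap the 5 high in it, and F04 and F05 were on the side of the other genotype. The high values spread from 4.81 to 7.84 for Cyp2f2 and from 5.67 to 7.55 for Fer1l6, more widely than either side of Nr1d2.

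**Figure D3:**
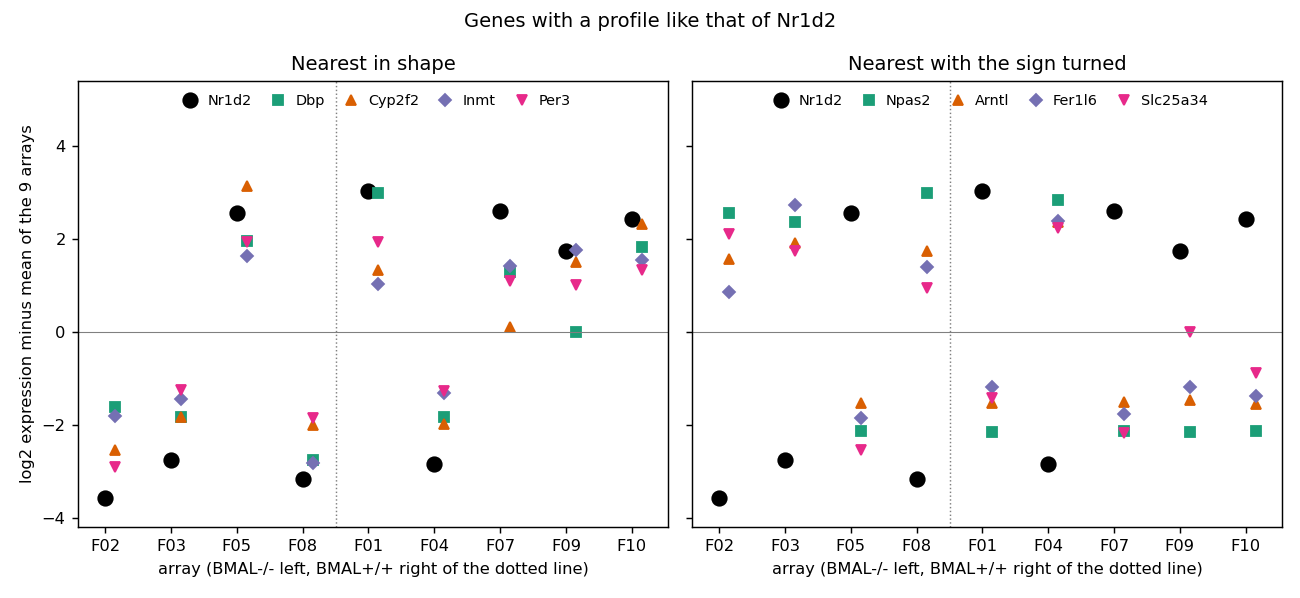
Log2 expression minus the gene's mean over the 9 arrays (y axis) for Nr1d2 (black) and the 4 genes nearest to it by mean absolute difference (left) or with the sign turned (right), by array (x axis, BMAL-/- left of the dotted line, BMAL+/+ right of it). The distance counts the size of the changes as well as their shape. F05 lies with most BMAL+/+ arrays and F04 with most BMAL-/- arrays, and the distance to Nr1d2 is 0.96 for Dbp and 0.46 for Npas2.

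Among genes around the receptors, no clock gene with ROR elements, which REV-ERB proteins repress, passed as labelled. Of 6 measured of 7 listed, 0 passed over the 9 arrays, 5 differences (83.3%) were above 0 and the median was 0.996, against 66.4% above 0 and a median of 0.03 over all 18193 genes. The list is short and holds Arntl, the targeted gene. Nothing is read from the count above 0, and the part of the receptors in these differences was not tested. The differences were 2.59 ± 1.38 (SE) for Npas2, 1.67 ± 1.02 (SE) for Arntl, 1.19 ± 0.54 (SE) for the clock repressor Cry1 and 0.80 ± 0.55 (SE) for Nfil3, a repressor of D-box genes. Their limma adjusted p lay between 0.37 and 0.42. Without F04 and F05 the median was 1.68, and Npas2 (4.78 ± 0.16, SE) and Arntl (3.27 ± 0.10, SE) passed (adjusted p = 0.000511 for each), where these arrays had been left out for such genes. The BMAL+/+ values behind them lie in the floor for Arntl (2.74 to 2.82) and near it for Npas2 (3.37 to 3.40), so that the differences may be understated and the SE reflects the narrow spread of the floor. E2f8, also on the list, read near the floor and differed by -0.06.

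Regulators that act on the Nr1d genes through E-boxes and D-boxes, 14 of 14 measured, had 0 passing as labelled, with 6 higher and 8 lower and a median of -0.21. Dbp, which activates D-boxes, differed by -1.91 ± 1.17 (SE) and Per3 by -1.84 ± 0.99 (SE), beside Npas2 and Arntl, which are on both lists. The groups as labelled did not overlap at 1 of the 14, and at 132 of all 18193 genes. The 1 was Cry2, a clock repressor named here after its values were seen. It read 6.09 to 6.68 in BMAL-/- and 6.68 to 7.13 in BMAL+/+, where the nearest arrays of the groups, F03 and F01, are equal after rounding, a difference of -0.35 ± 0.16 (SE, limma adjusted p = 0.37). Without F04 and F05 the groups did not overlap at 11 of the 14, where 17.5% of all genes did not. Most of the 14 are clock genes, for which these arrays were left out, so that nothing is read from this count.

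Among corepressors of REV-ERB, 5 genes were measured. None passed in either grouping, and the median was -0.11 as labelled. Tbl1x, a subunit of the NCOR complex, had the largest difference, -0.91 ± 0.54 (SE), and read 6.44, 6.66, 8.35 and 8.58 on F02, F03, F05 and F08 in BMAL-/- and 8.40, 7.30, 8.65, 9.14 and 8.61 on F01, F04, F07, F09 and F10 in BMAL+/+. F02 and F03 were lowest and F04 next, and F08 lay with the BMAL+/+ arrays. Hdac3, the deacetylase of the complex, differed by 0.13, Tbl1xr1 by -0.24 and Gps2 by -0.11.

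The coactivators and modulators, 10 of 10 measured, had 0 passing in either grouping and medians of 0.07 and 0.07. Nrip1, which modulates nuclear receptors, differed by -0.71 ± 0.38 (SE) and Ppargc1a, a coactivator of ROR-alpha, by 0.70 ± 0.27 (SE), both at a limma adjusted p of 0.37 as labelled. Ppargc1b differed by 0.56 ± 0.50 (SE) and Ep300 by -0.27 ± 0.18 (SE). Ppargc1a read 7.64, 7.52, 7.08 and 7.22 on F02, F03, F05 and F08 in BMAL-/- and 6.58, 7.40, 6.21, 6.97 and 6.20 on F01, F04, F07, F09 and F10 in BMAL+/+, so that F04 was the only BMAL+/+ array above any BMAL-/- array.

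Enzymes that make and break down heme, the ligand of the REV-ERB proteins, had 11 of 12 measured, 0 passing in either grouping, and medians of -0.01 as labelled and 0.15 without F04 and F05. Cpox differed by -0.40 ± 0.25 (SE), Urod by 0.37 ± 0.24 (SE), Alas1, the first and rate-limiting enzyme, by 0.29 ± 0.25 (SE) and Blvra, biliverdin reductase, by 0.21 ± 0.25 (SE). Alas1 read 10.55, 11.25, 10.49 and 10.79 on F02, F03, F05 and F08 in BMAL-/- and 10.41, 11.21, 10.36, 10.33 and 10.10 on F01, F04, F07, F09 and F10 in BMAL+/+. F04 was above all other BMAL+/+ arrays and F05 the lowest BMAL-/- array, and without both the groups did not overlap at 3 of the 11 (Alas1, Urod and Cpox), or 27.3%, against 17.5% of all genes. Alas1 and Urod were higher and Cpox lower in BMAL-/-, and nothing is read from this count.

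Genes that act in the turnover of REV-ERB proteins, 9 of 9 measured, had 0 passing in either grouping and medians of 0.00 and 0.06. The largest differences were those of Csnk1e (-0.54 ± 0.47, SE), Fbxw7, a ubiquitin ligase adaptor (0.37 ± 0.28, SE), Csnk1d (0.33 ± 0.27, SE) and Huwe1, a ubiquitin ligase (-0.17 ± 0.14, SE). Genes reported as REV-ERB or ROR targets outside the clock had 24 of 25 measured, 0 passing in either grouping, 15 higher and 9 lower as labelled, and medians of 0.04 and 0.05, close to the 0.03 and 0.04 of all genes. Cidec, a lipid droplet protein (-1.15 ± 0.78, SE), Cyp2b10 (0.73 ± 1.11, SE), Ulk1, an autophagy kinase (-0.59 ± 0.23, SE), and Elovl3, a fatty acid elongase (-0.48 ± 1.05, SE), had the largest differences. Cidec and Elovl3 are also genes of fat cells, and the mean of the 3 brown fat markers ranged from 11.56 to 13.35 in BMAL-/- and from 11.67 to 13.94 in BMAL+/+. Its part in these differences was not tested. The groups did not overlap without F04 and F05 at 4 of the 24, against 17.5% of all genes.

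**Figure D4:**
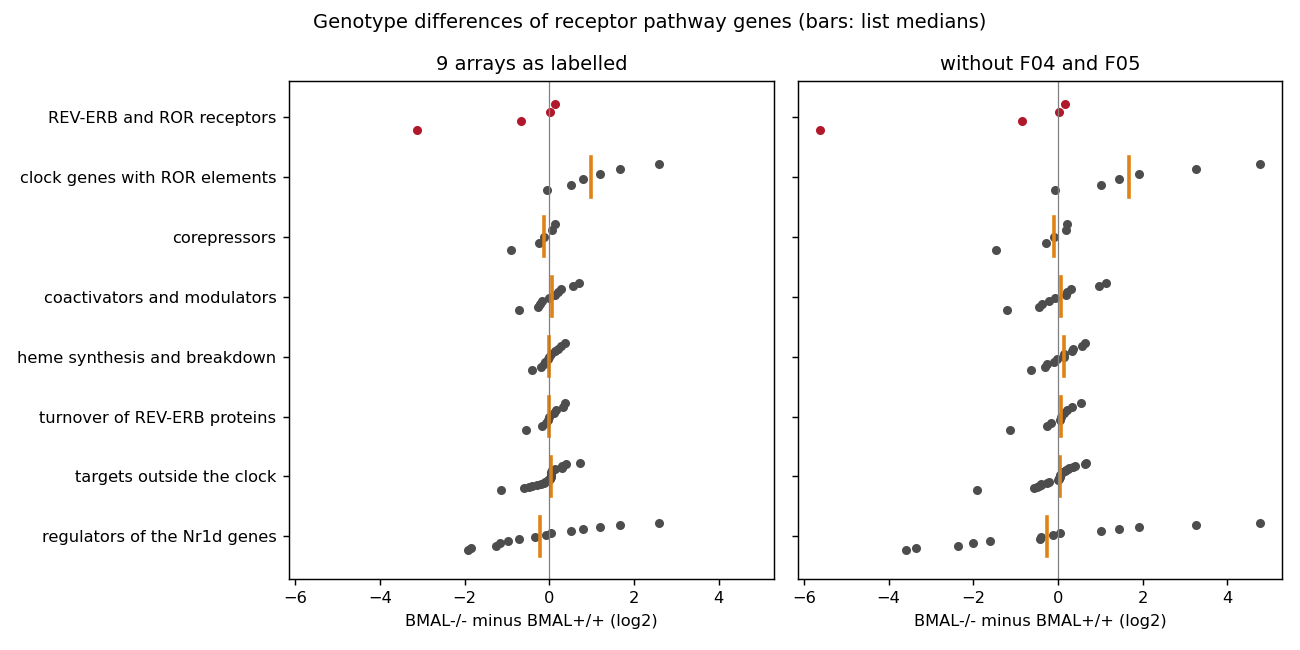
Difference BMAL-/- minus BMAL+/+ in log2 expression (x axis) of the 4 receptor genes (red) and of the genes of each list (grey points, with the list median as an orange bar), over the 9 arrays as labelled (left) and without F04 and F05 (right). The median of the clock genes with ROR elements is 0.996 and 1.68, and those of the other lists lie between -0.25 and 0.15. Npas2, Arntl, Clock, Cry1 and Nfil3 are on 2 lists.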

How the data were processed

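Aortic RNA of 9 mice was measured on Affymetrix arrays, 1 per sample, and groups were taken from the titles. The deposited values are log2 expression made by the authors. Per the submitters' processing notes GCRMA and MAS5 were used, in roles and versions not given in the sources used here. No further normalization or filter was applied. Precision is limited by how few arrays there are. Without the 64 control probe sets, 45037 remained, of which the platform annotation pairs 34945 with 1 gene. Symbols were updated through RefSeq gene identifiers (GRCm38.p6).

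Genotype was fitted to all probe sets with limma 3.58.1 in R 4.3.3 (lmFit, eBayes with a trend), with two-sided p adjusted over all of them (Benjamini-Hochberg) and a threshold of 0.05. Exact permutation tests (scipy 1.17.1) over all 126 splits of the 9 arrays, or 35 of 7, were two-sided. From each list the genes named were those passing, or the 4 with the largest difference over the 9 arrays. Members and lists were chosen with earlier results of these data known. Scripts were tested on simulated data. The groups share no replicate numbers.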

Additional observations from a re-analysis of the deposited data

Results flagged for a closer look

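Of 30 groups of 4 or 5 arrays examined (15 probe sets in 2 genotypes), 5 held an array whose gap to the nearest other array exceeded Dixon's limit, which chance alone gives in about 1 of 20 groups. At the main Nr1d2 probe set these were F05 in BMAL-/-, at 11.21 where the other BMAL-/- arrays lay between 5.08 and 5.89, and F04 in BMAL+/+, at 5.81 where the other BMAL+/+ arrays lay between 10.39 and 11.69. At the other Nr1d2 probe set F05 read 3.38, against 2.32 to 2.38 on the other BMAL-/- arrays. At the Rora probe set 1458145_at, in the floor, F05 read 3.08, against 2.79 to 2.84 on the other BMAL-/- arrays. At the Rorb probe set 1425162_at, also in the floor, F09 read 2.92, against 2.30 to 2.35 on the other BMAL+/+ arrays. F04 and F05 had been singled out by clock genes, Nr1d2 among them, and the probe sets repeat the same genes. Nothing is therefore read from the number of groups flagged.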

How the results depend on the processing

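As labelled, Nr1d2 was lower in BMAL-/- under all 20 alternatives run (-0.74 to -5.63) and passed only without F04 and F05, where 4 probe sets passed over all genes in place of 0. No other alternative gave a called probe set over the 9 arrays. The Rora difference turned to -0.024 with centred arrays and to -0.13 as the mean of its probe sets, and lay between -0.20 and 0.15 without 1 array. Nr1d1 turned to 0.26 with F01 in BMAL-/-. The Nr1d2 call of the 7 arrays without F04 and F05 was lost under quantile normalization (-5.55), in the F-test (-5.63) and with F01 in BMAL-/- (-3.88). Without 1 further array the Nr1d2 difference lay between -5.42 and -5.86, but the call was lost without F01, F02, F03, F07 or F10. Rorb passed with array weights (0.26) and lay between 0.082 and 0.26 without 1 further array. Rora turned to -0.038 with centred arrays, -0.15 with array weights and -0.20 as the mean of its probe sets, and lay between -0.24 and 0.24 without 1 further array, and Nr1d1 turned to 0.30 with F01 in BMAL-/-. The 4 called probe sets became 2 after quantile normalization, 15448 with array weights, 2 with F01 in BMAL-/-, and 2 to 16445 without 1 further array. The causes were not tested. Alternatives run without F04 and F05, other than leaving out arrays, were chosen after seeing the data. The filter on brightness removed the main probe sets of Nr1d1 and Rorb, which have no value there. No paired analysis was possible because the groups share no replicate numbers. Values in the floor limit what can be said of Nr1d1 and Rorb.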
